A study of Mus musculus with 8 samples.

Results

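The Granulo_1 cluster was 1 of 21 leukocyte clusters that the study drew from single-cell RNA sequencing of the mouse brain and its coverings after stroke. Its members were the cells that the deposited annotation names Granulo_1, each tied through its droplet barcode to the count matrix of its own library. They were 2127 of 32457 annotated cells, or 6.55%, and formed the 5th largest cluster. Lyz2, the macrophage and granulocyte lysozyme, and Fn1, the matrix protein fibronectin, were the genes given as its markers. The name points to granulocytes. The counts went against it: the neutrophil genes Ly6g and Cxcr2 were at or near 0 in these cells, while others such as S100a8 were present. A list of monocyte genes, Fn1 among them, outweighed a list of neutrophil genes in every library. The cluster is thus called here only by its label.

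The study asked how ischaemic stroke alters the leukocytes of the brain parenchyma, the pia mater and the dura mater. Adult male C57BL/6 mice underwent transient middle cerebral artery occlusion (MCAO), in which a cerebral artery is blocked for a time and reopened, or served as controls. There were 8 libraries: 3 controls (brain parenchyma, dura mater and pia mater, 1 library each), 2 libraries of brain parenchyma at 24 h, 1 of pia mater and 1 of dura mater at 24 h, and 1 of brain parenchyma at 72 h. All groups were wild-type leukocytes sorted as CD45+ and not stained by a CD45 antibody injected into the blood shortly before perfusion, which leaves out cells inside vessels. The study states that its sequencing experiments were repeated and then combined for each compartment, and how many mice made up each library is not clear from the sources used here. The labels call the controls only control, and the study's text describes them both as naive and as sham-operated. Control pia is titled as brain parenchyma, but its tissue and source labels give pia mater, and it was used as pia. Apart from brain parenchyma at 24 h each group had a single library, so a difference between groups cannot be told apart from a difference between libraries.

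Classical monocytes are blood leukocytes made in the bone marrow. They carry the chemokine receptor CCR2 and, in mice, high surface Ly6C, enter injured tissue along CCL2 gradients, and there can become macrophages or dendritic cells. Neutrophils are short-lived granulocytes whose RNA is dominated by S100a8 and S100a9, the subunits of calprotectin, and by granule and receptor genes such as Retnlg, Ly6g and Cxcr2. Both cell types enter the brain after a stroke, and both express lysozyme, so Lyz2 does not separate them.

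Granulo_1 cells numbered 5 in control brain, 86 and 188 in brain at 24 h (replicates 1 and 2), and 1315 at 72 h. Pia gave 55 cells in the control library and 303 after 24 h, and dura 66 and 109. The single 72 h library thus held 61.8% of the cluster. Each cell is measured in unique molecular identifiers (UMIs), which count one 3′ end per captured RNA molecule. Sums over the cells of a library are given here as counts per 1000000 UMIs of those cells (CPM), without division by gene length. The summed depth of the cluster was 10542 UMIs in control brain and between 90321 UMIs in control pia and 3592859 UMIs in brain at 72 h in the other 7 libraries, which alone had at least 30 Granulo_1 cells and entered the comparisons of genes.

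Some libraries stood apart. Replicate 2 of brain at 24 h and the 72 h library listed 31053 genes against 32285 in the other 6 libraries. Their cell barcodes came from another set: the 16 pairs of libraries within a set shared between 12 and 43 barcodes, whereas the 12 pairs across sets shared between 0 and 2. Only 1 barcode was shared by Granulo_1 cells of different libraries. The study used 2 kit versions, and its records divide the libraries between them in another way than these barcode sets, which was not settled here. The set and the time after MCAO overlap, because the 72 h library has a counterpart of its own set only in replicate 2 at 24 h. Control pia was the other exception. Its 55 Granulo_1 cells had a median of 1005 UMIs, against 2305 to 5683 in the other 6 libraries compared, and the main list sums are also given without it.

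Granulo_1 cells made up a larger share of leukocytes in brain and in pia after stroke. In brain parenchyma they were 0.116% of annotated cells in the control library (exact 95% interval 0.0378 to 0.271%), 1.88% (1.50 to 2.31%) and 5.42% (4.69 to 6.23%) in the replicates at 24 h, and 21.7% (20.7 to 22.8%) at 72 h. The replicates at 24 h averaged 3.65% ± 2.51 (SD, n = 2). All 3 brain libraries after MCAO lay above the control, and 72 h lay above both replicates. In pia the share was 1.96% (1.48 to 2.54%) in control and 7.73% (6.91 to 8.61%) at 24 h. In dura it was 2.35% (1.82 to 2.98%) in control and 2.41% (1.99 to 2.90%) at 24 h, a difference of 0.0647 percentage points that lay inside the counting intervals. These intervals cover counting error only, with no test between groups. Counted outside the microglia clusters, the share in brain was 0.887% in control, 5.43% and 12.8% at 24 h, and 26.2% at 72 h. Among cells of at least 1000 UMIs, the share in dura was 2.90% in control and 3.61% at 24 h. A share of cells cannot tell more Granulo_1 cells apart from fewer cells of other kinds.

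**Figure D1:**
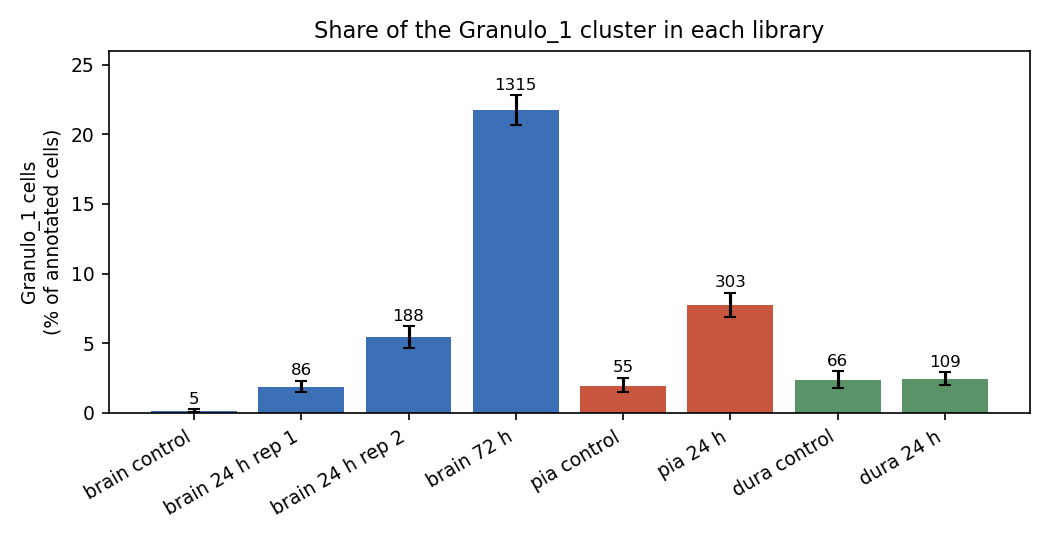
Granulo_1 cells as a percentage of all annotated cells in each of the 8 libraries (bars, y axis from 0), with exact 95% binomial intervals as error bars and the number of Granulo_1 cells above each bar; colours mark tissue (blue brain, red pia, green dura). The share rises from 0.116% in control brain to 21.7% in brain at 72 h, and the dura libraries at 2.35% and 2.41% do not differ beyond their intervals.

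Monocyte genes outweighed neutrophil genes in the cluster in every library. The monocyte list includes Fn1, a gene given as a marker of the cluster, so it is not independent of that choice. Fn1 gave 2841 of 13387 CPM of the list in brain at 24 h replicate 2, and sums without Fn1 were not taken. The classical monocyte list held 11 genes, and its summed level in Granulo_1 was 3499 CPM at the lowest (control pia), 11490 CPM at the median and 14527 CPM at the highest (control dura), with a mean of 10491 CPM ± 3631 (SD, n = 7 libraries). The mature neutrophil list held 13 genes and summed to 111 CPM at the lowest, 1332 CPM at the median and 4079 CPM at the highest (mean 1790 CPM ± 1653, SD, n = 7). Without control pia the means were 11656 CPM for the classical monocyte list and 2070 CPM for the mature neutrophil list. The ranges of both lists met only through control pia, whose monocyte sum was below the highest neutrophil sum. In Granulo_2, the other cluster with a granulocyte name, the neutrophil list reached 210422 CPM ± 60525 (SD, n = 6) with a lowest library of 132982 CPM, far above every Granulo_1 library. The background level of the neutrophil list in the lymphoid clusters, which should lack it, was 140 CPM ± 135 (SD, n = 8). The monocyte list stood at 923 CPM ± 291 there, which is not background alone. The T cell cluster was the highest for Ly6c2 in replicate 1 of brain at 24 h (402 CPM) and in control pia (572 CPM). The B cell cluster was the highest for Plac8 in control pia (1389 CPM). The clusters were made from these same counts, so differences between them are described without a test.

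The monocyte list was higher in Granulo_1 than in any other cluster of at least 30 cells in 6 of 7 libraries. In control pia it came second, with 3499 CPM against 3849 CPM in CAM_2. The next cluster was close in dura at 24 h (prolif_cells, 9781 CPM against 11490 CPM) and in brain at 72 h (Macro_1, 8165 CPM against 10046 CPM of the classical monocyte list). Granulo_2 carried 6179 CPM ± 2452 (SD, n = 6) of the same list. Most of that was Chil3, a chitinase-like lectin of monocytes and neutrophils, at 5219 CPM, and Ly6c2, a gene for the Ly6C surface antigen, at 534 CPM. Chil3 was also the most abundant list member in Granulo_1 (mean 3358 CPM). There it gave 6253 of 11697 CPM in brain at 24 h replicate 1. In dura and pia at 24 h it gave 5356 of 11490 and 4068 of 8790 CPM. Its part was smaller in replicate 2 (3747 of 13387 CPM), brain at 72 h (2480 of 10046 CPM), control dura (1588 of 14527 CPM) and control pia (11.1 of 3499 CPM). Macro_2 carried 2857 CPM ± 404 (SD, n = 8) and SAMC, the stroke-associated myeloid cells, 1798 CPM ± 1331 (SD, n = 4).

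**Figure D2:**
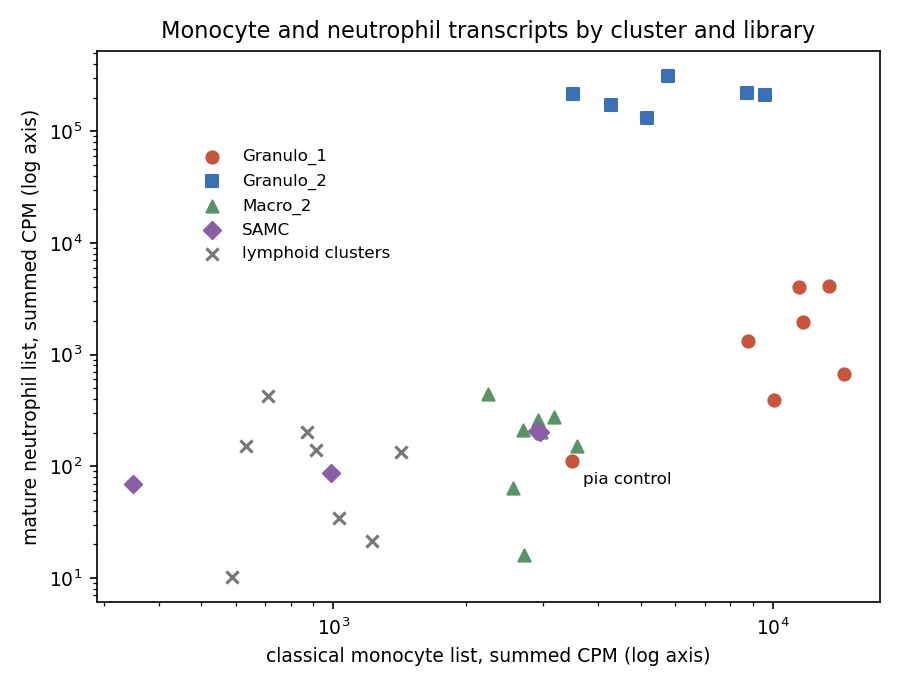
Summed CPM of the classical monocyte list (x axis, log scale) against that of the mature neutrophil list (y axis, log scale), 1 point per cluster and library with at least 30 cells. Granulo_2 libraries lie above 132982 CPM on the neutrophil axis, Granulo_1 libraries lie at or below 4079 CPM and mostly furthest to the right, and the control pia library of Granulo_1 lies among Macro_2.

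Counted cell by cell the same order appeared. Each cell was thinned to 1000 UMIs, which left out 87 shallower Granulo_1 cells in the 7 libraries. Of the remaining 2035 cells, 1981 had more UMIs of the monocyte list than of the neutrophil list, 29 had more of the neutrophil list and 25 had equal numbers. Among 725 Granulo_2 cells (541 left out), 723 had more of the neutrophil list and 1 had more of the monocyte list. Granulo_1 cells with more neutrophil-list UMIs were found mainly in brain at 24 h replicate 2 (12 of 187) and in dura at 24 h (9 of 100). Brain at 72 h gave 1279 of the 2035 cells. Some Granulo_1 cells had list counts within 2 UMIs of each other, so the division is one of degree at its edge. They were 10 of 28 in control pia, 59 of 294 in pia at 24 h and 17 of 100 in dura at 24 h. In brain they were 10 of 85 and 13 of 187 at 24 h (replicates 1 and 2) and 69 of 1279 at 72 h. Control dura had 2 of 62.

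Lyz2 was the most abundant gene of the cluster. It stood at 17853 CPM at the lowest (brain at 72 h), 28657 CPM at the median and 59439 CPM at the highest (control dura), and was higher in Granulo_1 than in any other cluster in 7 of 7 libraries. Fn1 ranged from 11.1 CPM in control pia over a median of 540 CPM to 2841 CPM in brain at 24 h replicate 2. It was highest in Granulo_1 in 5 of 7 libraries, with prolif_cells above it in dura at 24 h and ILC2 in control pia. In control pia its 11.1 CPM is 1 UMI. In GRCm38/mm10 coordinates Lyz2 lies at chr10:117277331-117282321 and Fn1 at chr1:71585520-71653200, both protein-coding genes on the minus strand.

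The monocyte genes differed in how particular they were. Vcan, which encodes the matrix proteoglycan versican, was highest in Granulo_1 in all 6 libraries outside control pia, up to 760 CPM (brain at 24 h replicate 2) with a median of 165 CPM over the 7 libraries. F10, which encodes coagulation factor X, was highest in 5 of those 6. Control pia held only 1 UMI of Vcan and 2 of F10 and gives no rank. Ccr2 and Ms4a4c, a membrane protein gene of the MS4A family, were highest in 5 of 7. Ccr2 ran from 233 CPM in control pia to 1021 CPM in control dura. Plac8 ran from 388 CPM in control pia to 4552 CPM in control dura, and Chil3 from 11.1 CPM in control pia to 6253 CPM in brain at 24 h replicate 1. Ly6c2 was highest in Granulo_1 in only 1 of 7 libraries. Its level was 99.6 CPM in control pia, 126 CPM in pia at 24 h, 156 CPM and 590 CPM in the replicates of brain at 24 h, 634 CPM in brain at 72 h, 522 CPM in dura at 24 h and 1377 CPM in control dura. The pia libraries and replicate 1 of brain at 24 h were the low ones. All 5 Granulo_1 cells of control brain, too few for a comparison, summed to 11857 CPM of the classical monocyte list, with 949 CPM of Ccr2 and 569 CPM of Ly6c2.

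Detection per cell told the marker genes apart. Among Granulo_1 cells thinned to 1000 UMIs, Lyz2 was detected in 99.7% ± 0.801, Fn1 in 40.2% ± 24.1, Ccr2 in 40.2% ± 12.6 and Thbs1 in 44.7% ± 21.2 (means and SDs over 7 libraries). The same thinning gave 26.1%, 0.565%, 11.9% and 0.352% in the lymphoid clusters, which served as the level expected from free RNA, although some lymphocytes use Ccr2 themselves. For thinned Granulo_2 cells the shares were 85.5%, 2.75%, 0.368% and 31.6%, so Thbs1 was detected in many cells of both clusters. Unthinned, the Granulo_1 shares were 99.6%, 55.0%, 63.7% and 59.7%. Median depth before thinning in brain at 72 h was 2732 UMIs in Granulo_1, 1869 UMIs in Granulo_2 and 1473 UMIs in the lymphoid clusters. S100a9 was detected in 4.07% ± 3.24 of thinned Granulo_1 cells and in 3.25% of lymphoid cells. In replicate 2 of brain at 24 h, where S100a9 stood at 909 CPM in Granulo_1, the shares were 8.56% of Granulo_1 cells and 3.47% of lymphoid cells. S100a8 was detected in 16.8% ± 13.7 of Granulo_1 cells against 3.28% of lymphoid cells. Ly6g, the defining neutrophil surface antigen, was detected in 0 of 1279 thinned Granulo_1 cells of brain at 72 h, and in no thinned cell of the other libraries. It was detected in 29.8% ± 19.5 of Granulo_2 cells, in libraries of which some held few deep enough cells.

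**Figure D3:**
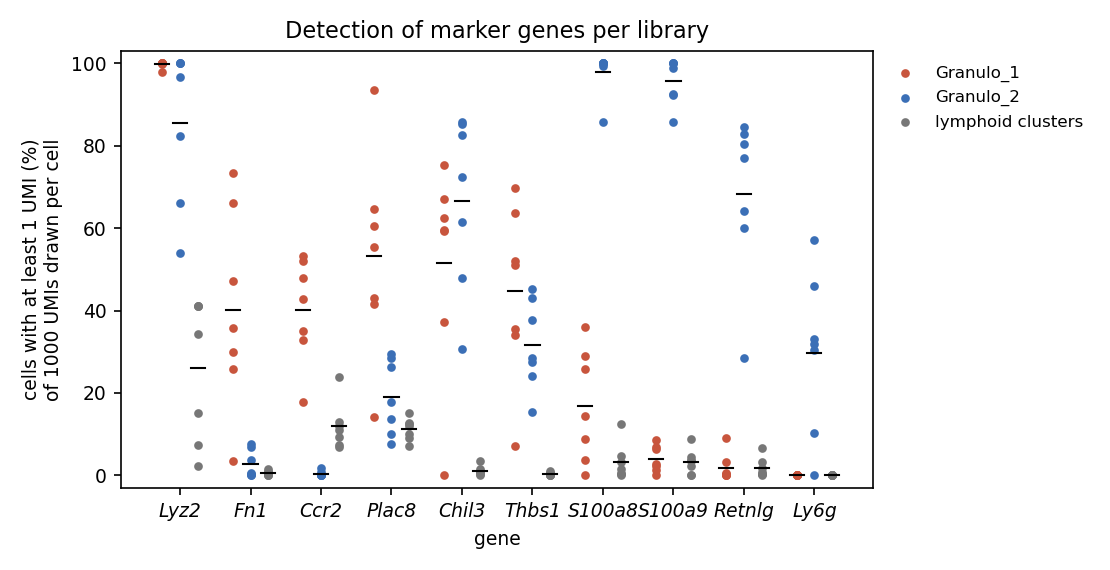
Percentage of cells with at least 1 UMI of each gene after thinning to 1000 UMIs per cell (y axis), with 1 point per library and a black line at the mean of 7 libraries, for Granulo_1 (red), Granulo_2 (blue) and the pooled lymphoid clusters (grey). Lyz2 is near 100% in Granulo_1, Fn1 and Ccr2 separate Granulo_1 from Granulo_2, and S100a9, Retnlg and Ly6g are far lower in Granulo_1 than in Granulo_2 on average.

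S100a8 was on average the most abundant gene of the neutrophil list in Granulo_1, at 944 CPM. S100a8 stood at 0 CPM in control pia and 145 CPM in control dura. At 24 h it stood at 447 CPM in pia, 2481 CPM in dura and 985 CPM and 2463 CPM in brain, and at 72 h at 86.0 CPM. The 24 h libraries were the high ones and did not overlap with the controls or with 72 h. In Granulo_2 of 6 libraries the same gene averaged 113480 CPM ± 28334 (SD). Among the other neutrophil genes, Il1r2 (the decoy receptor for interleukin-1), Mmp8 (neutrophil collagenase) and Trem1 (an activating receptor also used by monocytes) averaged 206, 173 and 161 CPM. Ly6g had UMIs only in control dura (6.59 CPM), and Cxcr2 was at or below 1.32 CPM in every library. Retnlg was below 7 CPM in 5 of 7 libraries, at 19.8 CPM in control dura and at 97.7 CPM in dura at 24 h. Csf3r, the receptor for granulocyte colony-stimulating factor, stood between 42.1 and 87.7 CPM in the 7 libraries. In Granulo_2 it stood between 72.5 and 710 CPM, and the clusters were closest in control dura (Csf3r 52.7 CPM against 72.5 CPM).

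S100a8 and S100a9 did not keep the ratio they had in neutrophils. They are neighbouring genes on chromosome 3, S100a8 at chr3:90668978-90670035 on the plus strand and S100a9 at chr3:90692632-90695721 on the minus strand (GRCm38/mm10). S100a8 made up 96.9% of the UMIs of both genes in Granulo_1 of brain at 24 h replicate 1, 73.0% in replicate 2, 63.3% in brain at 72 h, 91.4% in pia 24 h after MCAO, and 81.5% (control) and 93.9% (24 h) in dura. In Granulo_2 of the same libraries it made up 73.0%, 45.8%, 45.7%, 69.5%, 75.5% and 74.4%. Granulo_1 was the higher of the pair in 6 of 6 libraries. In control dura its exact interval, 61.9 to 93.7% from 27 UMIs, included the Granulo_2 share.

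Lists of other cell types were summed in the same way. Of 5 eosinophil genes, Ccr3, Prg2 and Il5ra had no UMI in the 7 libraries and the list summed to 0.84 CPM on average. The basophil and mast cell list (8 genes) averaged 16.1 CPM, the lymphoid list (8 genes) 14.7 CPM and the platelet list (5 genes) 4.42 CPM. The erythroid list (5 genes, most abundant Hbb-bs) averaged 80.7 CPM ± 130, with 231 CPM in replicate 2 of brain at 24 h, 304 CPM in brain at 72 h, 30.1 CPM in dura at 24 h and 0 CPM in the other 4 libraries. The nonclassical monocyte list (9 genes, most abundant Itgal) averaged 289 CPM ± 183. That was near the 261 CPM ± 178 of Macro_2 and the 242 CPM ± 202 of the lymphoid clusters. The dendritic cell list (10 genes, most abundant Cd209a) averaged 162 CPM ± 185, and was highest of the 7 libraries in control dura at 580 CPM. In the lymphoid clusters it averaged 184 CPM ± 71.1.

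The tissue macrophage list (10 genes) behaved differently. Its sum in Granulo_1 was 57628 CPM in control pia and between 5139 CPM (control dura) and 15632 CPM (brain at 72 h) in the other 6 libraries. Apoe, the apolipoprotein of lipid-handling macrophages, gave most of it, with 37201 CPM in control pia and a median of 6572 CPM. The border macrophage list (6 genes, most abundant Pf4) summed to 2513 CPM in control pia and to at most 609 CPM elsewhere. The microglia list (10 genes) summed to 1949 CPM there and to at most 661 CPM in the other 6. Granulo_1 cells of control pia thus carried macrophage transcripts at the level of Macro_2 of the same library, whose Apoe was 37716 CPM. How far free RNA or misassigned cells contributed to control pia was not tested.

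By overall profile the cluster lay closest to Macro_2. The Spearman correlation of mean expression between Granulo_1 and Macro_2 averaged 0.872 ± 0.0312 (SD over 7 libraries, across genes of the same library, which are not independent) and was the highest of all clusters in 6 of 7 libraries. In brain at 72 h CAM_2 came first, at 0.935 against 0.922 for Macro_2. SAMC averaged 0.782 ± 0.110 (n = 4) and Granulo_2 0.695 ± 0.0393 (n = 6). Clusters of 1 library share its depth and free RNA, so these values are a description.

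Against Granulo_2, Granulo_1 was higher in monocyte genes and lower in neutrophil genes. Of 3076 genes with a mean of at least 50 CPM in either cluster, 406 (13.2%) were at least 2-fold higher in Granulo_1 in each of the 6 libraries compared and 156 (5.07%) were at least 2-fold lower. With only cells of at least 1000 UMIs 614 were higher. Thinning to that depth left 13 Granulo_2 cells in brain at 24 h replicate 1 and 29 in pia at 24 h. Both are below the minimum of cells per library, so fewer libraries may have been compared. The part of depth alone was not tested. The monocyte list had 9 of 11 members higher and 0 lower, with a median log2 ratio of 5.22 against 0.78 over all genes. Ccr2 had the highest mean ratio, 7.34 ± 2.05 on the log2 scale (SD, n = 6), with 698 CPM in Granulo_1 and 5.10 CPM in Granulo_2. S100a4, a calcium-binding protein of motile cells (6.47 ± 1.44), Vcan (6.14 ± 2.35), Pid1 (5.94 ± 1.72), Ms4a4c (5.82 ± 2.15), Fn1 (5.77 ± 1.93) and Ms4a8a (5.72 ± 1.68) were also among the highest.

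The genes lower than in Granulo_2 were led by neutrophil granule genes. Camp (cathelicidin) had a mean log2 ratio of -11.69 ± 1.55, Ngp (neutrophilic granule protein) -11.30 ± 1.58 and Ltf (lactoferrin) -11.13 ± 1.79, followed by Retnlg, S100a9, Chil1 and Mrgpra2b between -10.78 and -8.60, all after 0.5 counts were added to each side. Olfm4 had no UMI in Granulo_1 and averaged 318 CPM in Granulo_2. The mature neutrophil list had 10 of 13 members lower and 0 higher, and the precursor granule list 6 of 9. The cell cycle list had 4 of 5 lower and 0 higher. With at least 3 UMIs in Granulo_2 of every library, 120 genes (3.9%) were lower, among them 9 of 13 mature neutrophil genes without Ly6g, and 2 cell cycle genes, Hmgb2 and Stmn1. Of the MHC class II genes, which present antigen to T cells, 4 of 6 were higher in Granulo_1, and of the myeloid transcription factors 4 of 10, among them Runx3, Cebpa and Zeb2. Lyz2 was higher by 1.25 ± 0.17 on the log2 scale in 6 of 6 libraries. Chil3 and Ly6c2 were shared: neither was past 2-fold in every library.

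Against Macro_2, Granulo_1 was higher in 6 of 11 monocyte genes outside control pia, and lower in 5 of 7 MHC class II genes in all libraries. Of 2970 genes, 42 (1.41%) had a log2 ratio past 2-fold higher in each of 7 libraries and 12 (0.404%) past 2-fold lower, or 32 lower without control pia and 23 without brain at 72 h. The ratios carry 0.5 counts added to each side, which raise the shallower cluster where it has few or no UMIs. With at least 3 UMIs asked of the higher cluster in every library, 12 genes (0.404%) were higher and 12 lower, and of the monocyte list Ly6c2 and Plac8 were among the 12. That requirement was chosen after seeing the data. Of the 30 genes it left out, 28 had their fewest UMIs, between 0 and 2, in control pia, and the others in control dura. Without control pia and with the same requirement, 50 of 3009 genes (1.66%) were higher in each of 6 libraries and 31 (1.03%) lower, and the monocyte list had 6 of 11 members higher and 0 lower.

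Over those 6 libraries, after the same addition, the monocyte genes higher than in Macro_2 were Chil3 (log2 ratio 6.41 ± 1.25, SD, n = 6), Vcan (5.49 ± 2.56), Ly6c2 (4.58 ± 0.82), F10 (3.92 ± 0.75), Fn1 (3.43 ± 2.15) and Plac8 (2.96 ± 1.44). Slpi (an inhibitor of leukocyte proteases) and Hp (haptoglobin) were higher by 5.37 ± 0.96 and 4.56 ± 1.06. Mmp8 and Cd177, genes better known from neutrophils, stood at 202 and 113 CPM in Granulo_1 and at 5.08 and 2.04 CPM in Macro_2. Thbs1, which encodes the adhesive matrix glycoprotein thrombospondin 1, was higher by 3.41 ± 0.45. Saa3 (serum amyloid A3) averaged 1650 CPM against 55.4 CPM but had no UMI in Granulo_1 of control dura, and so was not called. Ccr2 did not separate the clusters, with 698 CPM in Granulo_1 and 435 CPM in Macro_2.

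Of 7 MHC class II genes, 5 were lower than in Macro_2 in every library and 0 were higher. H2-Eb1 had a log2 ratio of -4.96 ± 1.85, H2-Aa -4.32 ± 1.42, H2-Ab1 -4.17 ± 1.31 and Cd74, the invariant chain, -3.40 ± 0.90. Cd74 stood at 928 CPM at the lowest, 8942 CPM at the median and 23372 CPM at the highest in Granulo_1, against 16890 to 100148 CPM in Macro_2. The lowest Macro_2 library overlapped with the highest Granulo_1 library, but within each library Macro_2 was higher. Clec4b1, Tnip3 and Slamf7 were also lower, by ratios between -3.35 and -2.95. No tissue macrophage gene was past 2-fold in all 7 libraries in either direction. Without control pia, Mrc1 was past 2-fold lower in every library (-3.02 ± 0.98, SD, n = 6), with 18.3 CPM against 145 CPM. There C1qa, C1qb and C1qc averaged -2.63, -2.66 and -2.60 but were not past 2-fold in every library.

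Against SAMC, Granulo_1 was higher in 8 of 11 monocyte genes and lower in 5 of 13 lipid and repair genes. Libraries with at least 30 cells of both clusters were all 3 brain libraries after MCAO and the pia library of 24 h. Of 3362 genes, 130 (3.87%) were at least 2-fold higher in all 4 and 93 (2.77%) at least 2-fold lower. These counts were 231 and 212 without brain at 72 h, and 45 and 36 with a minimum of 10 cells. Plac8 had the highest ratio, 7.95 ± 1.93 (SD, n = 4), with 1315 CPM against 7.22 CPM. Ifitm6 (7.19 ± 2.57) and Vcan (6.56 ± 1.87) were also among the highest. The monocyte list had 8 of 11 members higher and the S100 and lysozyme list 6 of 8, with 0 lower in either.

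The genes lower than in SAMC included Mmp12, macrophage elastase (-6.03 ± 1.14), Cd72 (-5.90 ± 2.89), Ch25h, cholesterol 25-hydroxylase (-5.69 ± 0.99) and Fcrls (-5.62 ± 1.31). Of 13 lipid and repair genes known to be high in SAMC, 5 were lower and 0 higher: Cd36, Cd63, Ctsl, Mmp12 and Spp1. That list was drawn up for SAMC with these libraries in view and is not independent of them. Spp1, osteopontin, stood at 7426, 2429, 647 and 3481 CPM in Granulo_1 and at 106398, 35312, 16576 and 35226 CPM in SAMC of the same libraries, in the order replicate 1 and replicate 2 of the 24 h brain, the 72 h brain and the 24 h pia. SAMC was the higher in 4 of 4. C1qa, C1qb and C1qc, the complement C1q chains, were lower by ratios between -3.77 and -3.29.

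The matrix and coagulation list (10 genes) was higher in Granulo_1 than in any other cluster in 7 of 7 libraries, at 1727 CPM in control pia and up to 5562 CPM in brain at 72 h. In dura at 24 h Granulo_2 was close, at 3098 CPM against 3571 CPM, and in brain at 72 h Macro_1 reached 4358 CPM. Tgfbi, a collagen-binding matrix protein, ran from 354 to 2048 CPM, and Thbs1 from 77.5 CPM in control pia to 2558 CPM in brain at 24 h replicate 2. Thbs1 was highest in Granulo_1 in 7 of 7 libraries. Granulo_2 was close in brain at 24 h replicate 1 (540 against 650 CPM) and in pia at 24 h (734 against 932 CPM). It was also close in control dura (530 against 613 CPM) and in dura at 24 h (614 against 883 CPM). The clusters lay further apart in brain at 24 h replicate 2 (1084 against 2558 CPM) and at 72 h (381 against 2272 CPM). The glycolysis and hypoxia list was highest in Granulo_1 in 4 of 7 libraries.

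**Figure D4:**
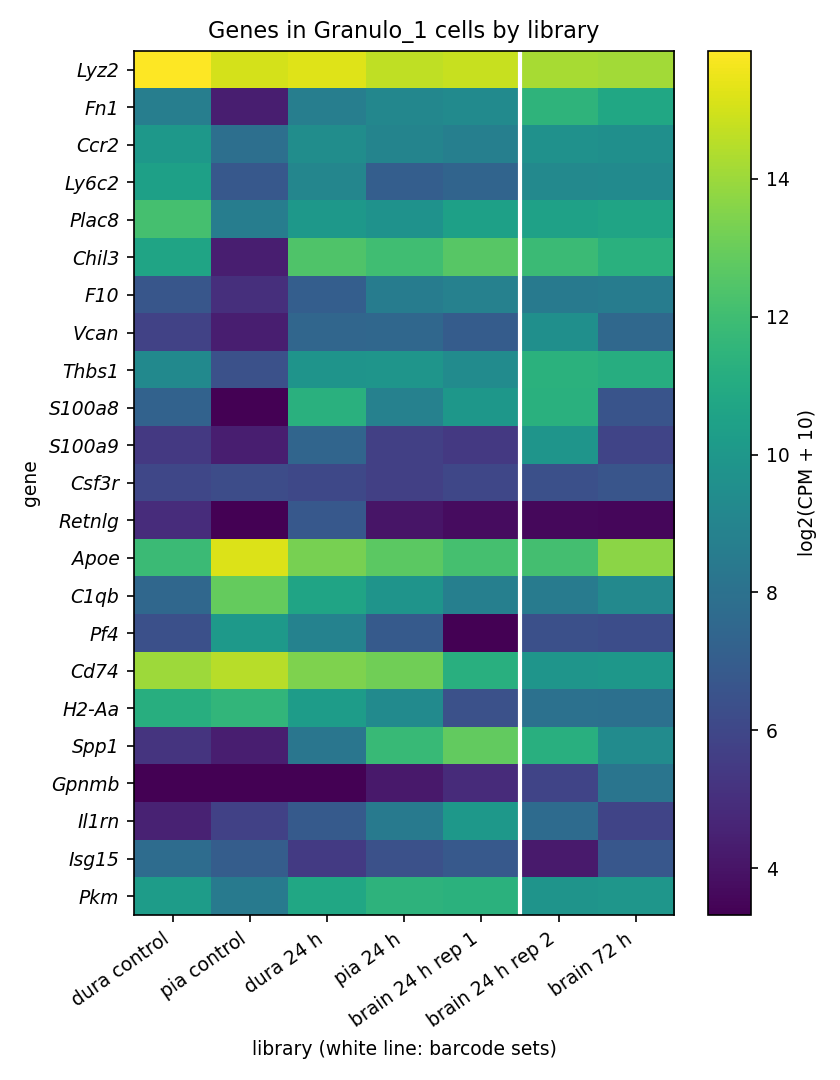
Level of 23 listed genes in Granulo_1 cells of the 7 libraries with at least 30 such cells, as log2(CPM + 10) in colour; rows are genes, columns are libraries, and the white line divides the 2 barcode sets. Lyz2 is bright throughout, control pia is low in Fn1 and Chil3 and high in Apoe, S100a8 is brightest in the 24 h libraries of dura and brain replicate 2, and Cd74 and H2-Aa are darkest in brain.

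Within Granulo_1, differences by time and tissue were tested with edgeR's quasi-likelihood test on summed counts of the 7 libraries, with tissue and time as terms and 5883 genes tested. No gene passed an adjusted p of 0.05 with a 2-fold change in any of 4 comparisons (0%, 0%, 0% and 0% of genes), while 168, 92, 107 and 168 genes had an unadjusted p under 0.05 for 24 h against control, 72 h against 24 h in brain, pia against dura, and brain against pia. DESeq2 called 4 (0.068%), 6 (0.102%), 2 (0.034%) and 0 (0%). In the same order edgeR called 111, 9, 54 and 736 genes without replicate 1 of brain at 24 h, and 108, 619, 54 and 12 without replicate 2. The replicates belong to different barcode sets, and of 2784 genes 589 (21.2%) were at least 2-fold higher in replicate 2 and 542 (19.5%) at least 2-fold lower. With the barcode set as a further term, chosen after seeing the data, edgeR called 102 (1.73%), 11 (0.187%), 56 (0.952%) and 11 (0.187%) genes. That fit has 1 residual degree of freedom, which comes only from the 4 pia and dura libraries. In it the brain term rests on replicate 1 at 24 h alone, and 72 h against 24 h on 1 library against replicate 2. Below, a gene called only with the barcode set passed neither in edgeR without it nor in DESeq2, and values given without a call are descriptions.

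At 24 h, Granulo_1 cells of pia and dura had higher levels of S100a8, Spp1 and Saa3 than their controls and lower levels of Ifi47 and Gbp2. Of 2706 genes, 74 (2.73%) were at least 2-fold higher at 24 h in both tissues and 48 (1.77%) at least 2-fold lower. S100a8 had a log2 fold change of 4.80 ± 0.96 (SE) and an adjusted p of 0.415 in edgeR, and Spp1 one of 5.57 ± 1.21 (adjusted p = 0.452 in edgeR). Both were among the 4 genes called by DESeq2 (adjusted p = 0.000159 for each), as was Chil3 (adjusted p = 0.00411, DESeq2). Spp1 stood at 3481 CPM in pia and 297 CPM in dura at 24 h against 11.1 and 26.4 CPM in control. Other clusters also had more Spp1 at 24 h than in control. In dura it stood at 295 against 87.0 CPM in Granulo_2 and at 94.7 against 42.0 CPM in Macro_2. In pia it stood at 605 against 70.3 CPM in Macro_2. The higher level was thus not particular to Granulo_1, and the part of free RNA was not tested. Igfbp6, which binds insulin-like growth factor II, and Wfdc21 had no UMI in either control, and stood at 159 and 86.4 CPM (Igfbp6) and at 38.2 and 154 CPM (Wfdc21) in pia and dura at 24 h. Both were called only by edgeR with the barcode set as a term.

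Among further genes higher in both tissues, Saa3 stood at 1859 CPM in pia and 823 CPM in dura at 24 h against 133 and 0 CPM, Lrg1, a leucine-rich glycoprotein of the acute phase, at 326 and 365 CPM against 0 and 13.2 CPM, and Il1r2 at 358 and 568 CPM against 0 and 138 CPM. All of these were higher in each 24 h library than in the control of its tissue, and Saa3, Lrg1 and Il1r2 were called only with the barcode set as a term. By list, 5 of 6 mature neutrophil genes above 50 CPM were higher in both tissues (Il1r2, S100a8, S100a9, Mmp8 and Trem1) with 0 lower, as were both precursor granule genes, Lcn2 and Ngp. With the barcode set as a term edgeR called 4 of 8 neutrophil genes higher at 24 h, where 1.73% of all genes were called in either direction. Granulo_2 was the richest source of these transcripts in every library with at least 30 of its cells, and its part in these values was not tested. The level of S100a8 in lymphoid cells was 149 CPM in dura at 24 h against 64.0 CPM in control dura, and 17.4 CPM against 5.37 CPM in pia.

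The genes lower at 24 h in both tissues included genes that interferons switch on. Ifi47 (an interferon-induced GTPase) stood at 6.58 CPM in pia and 7.52 CPM in dura at 24 h against 77.5 and 132 CPM in control, and Gbp2, a guanylate-binding protein, at 18.4 and 15.0 CPM against 122 and 178 CPM. Ly6i stood at 11.8 and 26.3 CPM against 66.4 and 415 CPM. Ifi47, Gbp2 and Ly6i were called only with the barcode set as a term. Of 6 interferon-response genes above 50 CPM, 3 were lower in both tissues, among them Ifi47 and Oasl2, and 0 higher, with a median log2 ratio of -1.85 against 0.11 over all genes. Of the MHC class II genes, 1 of 6 (H2-DMb1) was lower in both tissues, and with the barcode set as a term edgeR called 4 of 6 lower. H2-Aa was among them (log2 fold change -1.60 ± 0.36, adjusted p = 0.00144, edgeR with barcode set). The same fit called 5 of 12 immediate early and heat shock genes lower. Hspa1a, among them, stood at 786 and 63.2 CPM in pia and at 39.5 and 33.8 CPM in dura, in control and at 24 h. Genes of other cell types were also called lower in that fit. Cd209a, of dendritic cells, stood at 369 CPM in control dura and 22.6 CPM at 24 h, and at 44.3 and 51.3 CPM in pia. Folr2 and Cbr2, of border macrophages, stood at 321 and 343 CPM in control pia and at 3.95 and 14.5 CPM at 24 h. In dura Folr2 stood at 6.59 and 7.52 CPM and Cbr2 at 39.5 and 22.6 CPM, in control and at 24 h, so only control pia was high in both. The part of these gene groups in the class II values was not tested.

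Control pia weighs on these values. In dura alone, where 1 library stands against 1, 191 genes (6.99%) of 2733 were at least 2-fold higher at 24 h and 200 (7.32%) lower, and in pia alone 363 were higher and 355 lower. Spp1, Saa3, S100a8 and Ifi47 had the same direction in dura alone as in pia. Tissue macrophage genes did not: Apoe went from 37201 CPM in control pia to 6572 CPM at 24 h, but from 3703 CPM in control dura to 9829 CPM.

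**Figure D5:**
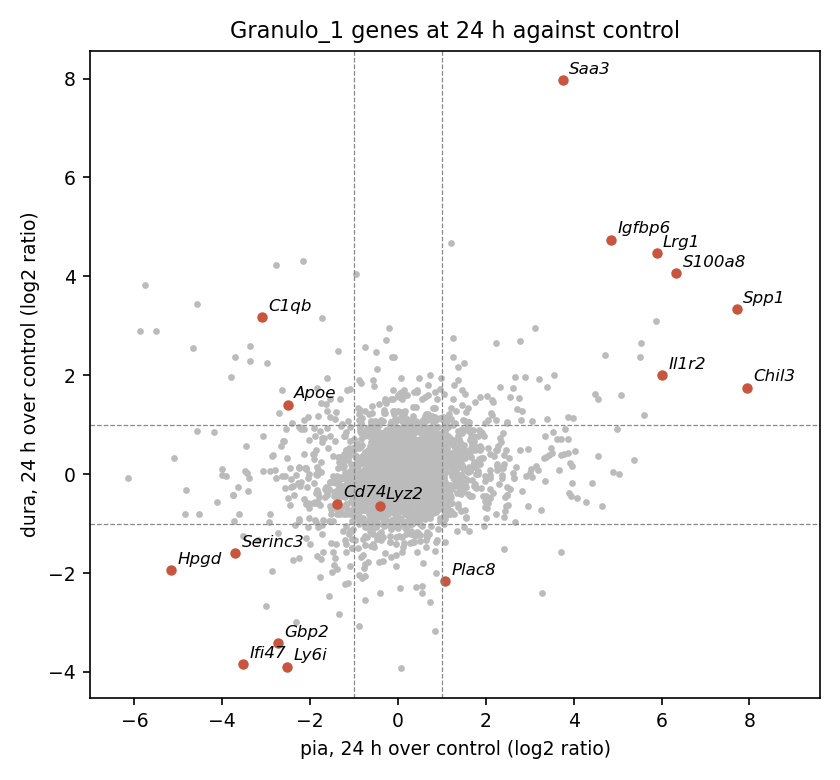
Log2 ratio of CPM at 24 h over control in Granulo_1 cells of pia (x axis) and dura (y axis), 1 grey point per gene for 2706 genes, with 17 genes in red and dashed lines at 2-fold. Saa3, Spp1, S100a8, Lrg1, Chil3, Igfbp6 and Il1r2 lie at upper right, Ifi47, Gbp2, Ly6i, Hpgd and Serinc3 at lower left, and Apoe and C1qb are opposite in the 2 tissues.

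In brain at 72 h, Granulo_1 cells had lower levels of S100a8, Saa3 and Cd14 and higher levels of Gpnmb, Fabp5 and Ms4a7 than in either library at 24 h, but neither DESeq2 nor edgeR, with or without the barcode set as a term, called Gpnmb, Fabp5 or Ms4a7 higher. Of 2857 genes, 36 (1.26%) were at least 2-fold higher at 72 h than in both replicates and 45 (1.58%) at least 2-fold lower. Against replicate 2 alone, the library of the same barcode set, 70 (2.37%) of 2951 genes were higher and 52 (1.76%) lower, and against replicate 1 alone 568 were higher and 556 lower. S100a8 stood at 985 and 2463 CPM at 24 h and at 86.0 CPM at 72 h, Saa3 at 6585 and 591 CPM and then 44.0 CPM, and Wfdc21 at 159 and 202 CPM and then 6.12 CPM. None of these overlapped between times. Inhba, a subunit of activin A, stood at 127 and 23.8 CPM and then 0.557 CPM, and Cd14, the lipopolysaccharide co-receptor, at 11299 and 974 CPM and then 295 CPM. Saa3 and Inhba were called lower only with the barcode set as a term. In edgeR the smallest p belonged to Wfdc21 (log2 fold change -4.88 ± 0.96, adjusted p = 1.00), and DESeq2 called Wfdc21 (adjusted p = 0.00389), S100a8, Bcl2a1d, Bcl2a1a, Cd14 and Lrg1 lower. Of 9 cytokine and chemokine genes above 50 CPM, 4 (Ccl6, Cxcl2, Il1b and Il1rn) were lower and 0 higher.

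Among the genes higher at 72 h, Gpnmb, a lysosome-linked glycoprotein of lipid-laden macrophages, stood at 19.1 and 48.6 CPM at 24 h and 283 CPM at 72 h. Fabp5, a fatty acid carrier, stood at 51.0 and 339 CPM and then 816 CPM, Abca1, a cholesterol exporter, at 19.1 and 63.9 CPM and then 179 CPM, and Pltp, the phospholipid transfer protein, at 12.7 and 47.7 CPM and then 221 CPM. Of 8 tissue macrophage genes above 50 CPM, 4 (Apoe, C1qa, Ms4a7 and Trem2) were higher and 0 lower. Ms4a7 stood at 28.7 and 21.0 CPM and then 195 CPM. Gpnmb had a log2 fold change of 2.98 ± 0.78 and an adjusted p of 1.00 in edgeR. With the barcode set as a term, where 72 h stands against replicate 2 alone, edgeR called Isg15, an interferon-induced ubiquitin-like protein, and Syngr1 higher (adjusted p = 0.0035 and 0.0211). Isg15 stood at 105 and 8.58 CPM and then 96.6 CPM, below replicate 1, and Syngr1 at 22.3 and 16.2 CPM and then 126 CPM. Of the interferon-response genes above 50 CPM, 1 of 4 was higher against both replicates and 4 of 5 against replicate 2 alone, with 0 lower. Fabp5 and Gpnmb also belong to the genes high in SAMC, of which 3 of 10 were higher and 1, Spp1, was lower. Apoe and Spp1 were far higher in SAMC of the 72 h library, at 52012 and 16576 CPM, than in Granulo_1 (12947 and 647 CPM), and the part of free RNA was not tested. Of the 11 monocyte genes, 0 were past 2-fold against both replicates. Against replicate 2 alone Vcan and F13a1 were lower, and against replicate 1 alone Ly6c2, Fn1 and Klf4 were higher (log2 ratios 2.01, 1.50 and 1.16) and Chil3 was lower (-1.33). Vcan stood at 115 CPM in replicate 1, 760 CPM in replicate 2 and 179 CPM at 72 h, and so was higher at 72 h than in replicate 1. F13a1, coagulation factor XIII A, stood at 516 and 977 CPM and then 389 CPM.

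By tissue, MHC class II genes set brain apart. The list summed to 2875 and 1825 CPM in brain at 24 h and 1890 CPM at 72 h, against 10992 and 14674 CPM in pia and dura at 24 h and 31953 and 23349 CPM in their controls. The brain libraries did not overlap with the others. H2-Aa stood at 76.5, 243 and 240 CPM in brain and between 629 and 3011 CPM in pia and dura. With the barcode set as a term, edgeR called H2-Aa, Cd74, H2-Eb1 and H2-Ab1 lower in brain than in pia, which is 4 of 6 class II genes tested against 0.187% of all genes, on a term that rests on replicate 1 of brain at 24 h alone. Without the set as a term none passed. In Granulo_2, where class II is low, Cd74 moved the same way. Its brain libraries held 409, 35.1 and 89.8 CPM, and pia at 24 h and both dura libraries held 815 to 1675 CPM. In Macro_2 Cd74 stood at 52495, 16890 and 18057 CPM in brain and between 83475 and 100148 CPM in pia and dura. In SAMC it stood at 604, 148 and 468 CPM in brain and at 10013 CPM in pia at 24 h. The lower level in brain was thus not particular to Granulo_1, and the part of free RNA was not tested. Border macrophage genes of Granulo_1 were also lower in brain than in pia (median log2 fold change -3.67 over 6 genes, 0 called, edgeR). The pia side includes control pia, whose list sum of 2513 CPM was the highest (median 197 CPM). At 24 h, log2 ratios of brain replicate 1 over pia were -6.05 (Pf4), -3.25 (Cbr2), -2.42 (Lyve1), -2.18 (Cd163), -1.53 (Folr2) and 0.441 (Stab1). Pf4 was 5.54 higher in replicate 2 than in replicate 1 on that scale. The part of control pia was not tested. Sgk1, a stress-responsive kinase, stood at 379, 300 and 480 CPM in brain and between 41.3 and 88.6 CPM elsewhere, without overlap, and was called higher only in the fit with the barcode set.

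Between pia and dura, of 2706 genes, 35 (1.29%) were at least 2-fold higher in pia both in control and at 24 h and 34 (1.26%) at least 2-fold lower. Ccl24, a chemokine for eosinophils, stood at 77.5 and 292 CPM in control and 24 h pia and at 0 and 3.76 CPM in dura. Iglc1, an immunoglobulin light chain gene, was higher in dura (178 and 188 CPM, against 0 CPM in pia) and was 1 of the 2 genes called by DESeq2 (adjusted p = 0.0118). Igkc stood at 231 and 342 CPM in dura and 11.1 and 19.7 CPM in pia, and Ngp at 105 and 229 CPM against 0 and 22.4 CPM. Immunoglobulin genes are products of B-lineage cells and Ngp of neutrophil precursors, and their part as free RNA in dura was not tested. Ly6c2 stood at 1377 and 522 CPM in dura and 99.6 and 126 CPM in pia, without overlap. Ccl24, Igkc, Ngp and Ly6c2 were called only with the barcode set as a term.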

How the data were processed

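Leukocytes of 8 libraries were sequenced with droplet 3′ kits. The authors deposited UMI counts per gene and cell for each library, made, per the submitters' processing notes, with Cell Ranger 6.0 on mm10, and a table with the cluster of each cell. That table holds the cells left after the authors' filters on genes, mitochondrial share and doublets, so no doublet caller was run here. Clusters were kept as named by the authors. The members and gene lists were chosen with earlier results of these data known.

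Counts were summed per cluster and library, using libraries with at least 30 cells. Clusters were compared within each library by log2 ratios of CPM after adding 0.5 counts, over genes with a mean of at least 50 CPM, and called past a fold of 2 in every library, with a floor of 3 UMIs on the higher side as an added alternative. Conditions were tested with edgeR 4.0.16 (quasi-likelihood, TMM, tissue and time as terms, Benjamini-Hochberg adjusted p under 0.05 and 2-fold), with DESeq2 1.42.0 as an alternative, in R 4.3.3. Control brain, with 5 cells, was not in the fit. Shares have exact (Clopper-Pearson) 95% intervals. In these per-library sums n is the number of libraries, which may share animals or preparation. The main fit has 2 residual degrees of freedom. They come from the difference between the brain replicates at 24 h, which belong to different barcode sets, and from pia and dura differing in their 24 h change. That change in pia rests on control pia. The p-values thus rest on these differences and not on a spread between like libraries. Named genes were those with the highest mean ratio in each direction past the fold in every library, those with the smallest p in each fit, and members of the lists. Genes named only from the fold comparisons between libraries, or only from the fit with the barcode set, were chosen after their values were seen. Tests were tried on simulated data. At the dispersion of the real fit, edgeR recovered 27.2% of genes changed 3 units on the log2 scale at 24 h and 4.63% of those changed 2 units (5363 genes). Gene positions are from GENCODE on GRCm38. Alternatives covered depth, cell minimums, filters, tool and left-out libraries. Some genes that met these rules are not reported here.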

Additional observations from a re-analysis of the deposited data

Results flagged for a closer look

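Several list sums in Granulo_1 had differences of opposite sign at 24 h in pia and in dura. The classical monocyte list was higher at 24 h by 5292 CPM in pia, and its difference in dura was -3037 CPM. The tissue macrophage list had a difference of -47977 CPM in pia and of 10083 CPM in dura. The recruitment and adhesion list differed by 1013 CPM in pia and by -27.9 CPM in dura. In dura it stood at 2121 CPM in control and 2094 CPM at 24 h, where 1 UMI is 6.59 and 3.76 CPM, so no direction is read there. The myeloid transcription factor list differed by -278 CPM in pia, from 6588 to 6310 CPM, and by 734 CPM in dura. Each side is 1 library against 1, and the difference between the tissues was not tested. All 4 pia values rest on control pia, the library with 55 shallow Granulo_1 cells.

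Barcodes that the annotation gives no cluster also carried monocyte transcripts, above the control of their tissue. The classical monocyte list in them summed to 1245 and 2300 CPM in brain at 24 h (replicates 1 and 2) and 3663 CPM in brain at 72 h, against 1050 CPM in control brain. It summed to 3665 CPM in pia at 24 h against 2802 CPM in control, and to 4157 CPM in dura at 24 h against 3140 CPM in control. These barcodes numbered between 266 and 1347 per library. Annotated cells carried 736 CPM of the list in control brain, 1314 and 4448 CPM in brain at 24 h and 4527 CPM at 72 h. In control and at 24 h they carried 2532.5 and 3399 CPM in pia, and 2844 and 2875 CPM in dura. The lymphoid clusters carried 587 to 1421 CPM. That range holds the values of control brain and of replicate 1 at 24 h in barcodes without a cluster.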

How the results depend on the processing

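Counts of called genes depended on the treatment of the replicates of brain at 24 h. For 24 h against control, 72 h against 24 h, pia against dura and brain against pia, edgeR called 0 genes in each, and 10, 10, 4 and 3 without a filter on low counts. DESeq2 called 4, 6, 2 and 0. The barcode set as a term, chosen after seeing the data, gave 102, 11, 56 and 11, and thinning cells to 1000 UMIs gave 1 for 72 h. Leaving out single libraries gave 0 to 111, 0 to 619, 0 to 54 and 0 to 736. The highest counts came without replicate 1 of brain at 24 h (111, 9, 54 and 736) or without replicate 2 (108, 619, 54 and 12). Of the others, leaving out control pia gave 2 for 72 h, 1 for pia against dura and 1 for brain against pia, control dura 2 for 72 h and 1 for brain against pia, dura at 24 h 2 for 72 h, and pia at 24 h 1 for brain against pia. The cause was not tested.

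With only cells of at least 1000 UMIs, 614 genes were higher than in Granulo_2 and 33 lower than in Macro_2. At that depth control pia kept 28 Granulo_1 cells. Granulo_2 kept 13 cells in brain at 24 h replicate 1 and 29 in pia at 24 h after thinning. These numbers are below the minimum of cells per library, so the libraries compared may have changed together with depth. The part of each was not tested. With at least 3 UMIs on the higher side in every library, added after seeing the data, 12 genes in place of 42 were higher than in Macro_2, while the counts against Granulo_2 were 397 higher and 120 lower and those against SAMC 130 and 89. Leaving out a library gave 12 to 32 genes lower than in Macro_2 (32 without control pia, 23 without brain at 72 h), and 136 to 231 higher and 93 to 212 lower than in SAMC (231 and 212 without brain at 72 h). A minimum of 10 cells gave 45 higher and 36 lower than in SAMC. For the share, brain at 24 h minus control was 3.53 percentage points, and 8.22 outside microglia, 2.92 over all barcodes, 5.83 with at least 1000 UMIs and 1.76 to 5.30 with 1 replicate left out. Brain at 72 h minus 24 h was 18.1 points, and 14.8 over all barcodes, 19.9 with at least 1000 UMIs and 16.3 to 19.9 with 1 replicate left out. Pia at 24 h minus control was 5.77 points, and 7.93 with at least 1000 UMIs. Dura at 24 h minus control was 0.0647 points, and 0.0296 over all barcodes and 0.710 with at least 1000 UMIs. In comparisons added after seeing the data, genes past 2-fold at 24 h numbered 191 (without control pia) to 363 (without control dura) higher and 200 to 355 lower. At 72 h they numbered 70 (without replicate 1) to 568 (without replicate 2) higher and 52 to 556 lower. For the 20 gene results recomputed in the fits, no fold change reversed in 256 alternatives. Those genes had the smallest p in each main fit and the alternatives used largely the same libraries, so a reversal was unlikely beforehand. In 70 of the 256 the gene was called, where the main fit had not called it. Vcan at 72 h was lower than in replicate 2 of brain at 24 h and higher than in replicate 1. No paired analysis was possible because the groups compared shared fewer than 2 replicate numbers. The 72 h comparison could not be made without its only library.

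Precision was limited by 1 library in every group other than brain at 24 h, by 5 Granulo_1 cells in control brain, and by depth in control pia, where 3 UMIs are 33.2 CPM.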
